A study of Mus musculus with 2 samples.

Results

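Processed pseudogenes are copies of messenger RNAs that were reverse transcribed and inserted into the genome, so they lack the introns of the gene they came from. In the adult mouse lung RNA-seq libraries described here, 179 of the 5349 processed pseudogene rows (3.35%) had a level of at least 1 TPM (TPM is a length-corrected share of all transcripts) in both libraries, out of 43346 gene rows in all. The gene type came from GENCODE M21. The members were chosen by their TPM in these same libraries, so their levels are a description and carry no test. Of all genes, 32.0% passed the same threshold. The library set consists of 1 group of 2 samples of lung from C57BL/6J mice aged 8 weeks, with no treatment named in the labels. The labels number the samples as biological replicates 1 and 2. Each sample is labelled as pooled from male and female littermates, and the number of animals is not stated, so the spread between replicate 1 and replicate 2 may be partly technical. The libraries were stranded, made from polyadenylated RNA of more than 200 nt, and read in pairs of 76 bases.

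A processed pseudogene inserted at random carries no promoter of its own, and background knowledge holds that most are silent. Those that are transcribed often use a promoter, an intron or a transcript already present at the insertion site. Highly expressed genes of the germ line, such as those for ribosomal proteins and glycolytic enzymes, have the most copies. Because a young copy is nearly identical to its parent, a read from one can be hard to tell from a read of the other. Below, "parent" is the coding gene that the pseudogene's symbol names or, failing that, the coding gene on another locus whose transcript aligned best, with at least 80% identity over at least 50% of the pseudogene. A parent was found for 174 members, 42 by symbol and 132 by alignment, over 141 different genes, and 5 members had none. In 4 members the parent had a single exon, and such a gene can itself be a processed copy.

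Members were aligned to spliced transcripts of their parents. In 167 members the aligned stretch crossed at least 1 exon junction of the parent. The 10 bases around the junction aligned without a gap at 746 of 752 such junctions (99.2%), against 94.9% in processed pseudogenes below the threshold. A single alignment to a spliced transcript leaves little room for an intron. These shares therefore describe small gaps and do not test whether introns were lost. The tables hold 48234745 and 44182836 gene counts in replicates 1 and 2, of which 0.209% and 0.187% fell on the members. The 7 lung markers summed to 154698 and 165795 TPM, of which Scgb1a1 alone held 122900 and 132500 TPM. Sftpc, Ager and Cdh5 were lower in replicate 2 and the other lung markers were higher there. Both libraries also hold markers of other tissues that differ between them: 4 squamous epithelium markers summed to 3851 and 1.29 TPM, 4 skeletal muscle markers to 2651 and 55.8 TPM with Tnnc2 at 0 in replicate 2, 2 brown fat markers to 185 and 5.42 TPM, 4 erythroid markers to 21923 and 61264 TPM, and 4 intestine and pancreas markers to 3.62 and 173 TPM with Sycn at 0 in replicate 1. Their part in the differences between the libraries given below was not tested, and in bulk tissue fewer cells of a type and less RNA per cell cannot be told apart.

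The sequences of the retrocopies of Rplp0, which encodes the stalk protein P0 of the large ribosomal subunit, carry the largest differences between the libraries. A stretch of 120 coding bases of Rplp0 (chr5:115561449-115562475, plus strand) is shown with the same stretch of its copies Gm8730 (chr8:102865098-102865217, minus strand), Gm9625 (chr13:67810827-67810946, plus strand) and Gm14165 (chr2:152354194-152354313, plus strand). Coordinates are mm10 and sequences are GENCODE M21 transcripts, written 5′ to 3′; capitals mark bases that differ from the parent. The first 70 bases of the parent's stretch lie in one exon and the remainder in the next, and the copies run through that junction without a break. Within the stretch Gm8730 differs from Rplp0 at 2 bases, Gm9625 at 5 and Gm14165 at 4.

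Rplp0: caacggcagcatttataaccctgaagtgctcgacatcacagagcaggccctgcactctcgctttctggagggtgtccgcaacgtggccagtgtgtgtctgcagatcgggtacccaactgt
Gm8730: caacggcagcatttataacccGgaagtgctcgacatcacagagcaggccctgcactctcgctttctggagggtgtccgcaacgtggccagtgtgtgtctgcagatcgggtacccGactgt
Gm9625: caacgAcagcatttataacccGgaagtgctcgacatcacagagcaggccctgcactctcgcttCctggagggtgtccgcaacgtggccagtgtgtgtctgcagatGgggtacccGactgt
Gm14165: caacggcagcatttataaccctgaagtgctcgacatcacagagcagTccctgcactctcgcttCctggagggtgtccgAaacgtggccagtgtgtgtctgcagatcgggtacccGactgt

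Gm8730 had 6775 counts in replicate 1 and 208 in replicate 2, or 217 and 6.80 TPM, a 27.2-fold difference (95% exact interval 23.7 to 31.3). Gm9625 had 2457 and 29 counts, or 91.2 and 1.10 TPM, a 70.7-fold difference (49.1 to 106). Their parent ran the other way, with 43474 counts in replicate 1 and 53001 in replicate 2 (1051 and 1313 TPM). Intervals here and below are exact Clopper-Pearson intervals on TMM-scaled counts and cover counting error only. These were the largest ratios among the 113 members averaging 50 or more counts.

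The other annotated copies of Rplp0 with any counts, named after their values were seen, were high in the same library. Gm14165 missed the threshold because it had 637 counts (23.8 TPM) in replicate 1 and 1.11 counts (0.04 TPM) in replicate 2. With counts rounded to 637 and 1, the ratio was 531, with an interval of 95.04 to 21020.0. Rplp0-ps1, in an intron of Flg on chromosome 3, had 85.9 and 0 counts (3.28 and 0 TPM). Thus 4 of the 6 annotated copies had counts, they lie on 4 different chromosomes, and all 4 were higher in replicate 1.

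The reads on these copies were assigned with little spread. The deposited posterior SD of the count, an estimate of its uncertainty, was 19 and 2.40 for Gm8730 and 12.5 and 1.54 for Gm9625. Over the 952 Rplp0 positions that align in Gm8730, Gm9625 and Gm14165, these differ from the parent at 12, 24 and 25 positions, and 7 of those carry the same base in all 3 copies. Gm8730 has 411 stretches of 76 bases (46.8% of its own) that occur in no other GENCODE M21 transcript, Gm9625 has 593 (67.4%) and Gm14165 has 714 (81.4%). Whether these reads came from transcripts of the annotated copies was not tested, so the folds describe counts assigned to these loci. The cause of the shared direction was not tested.

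**Figure D1:**
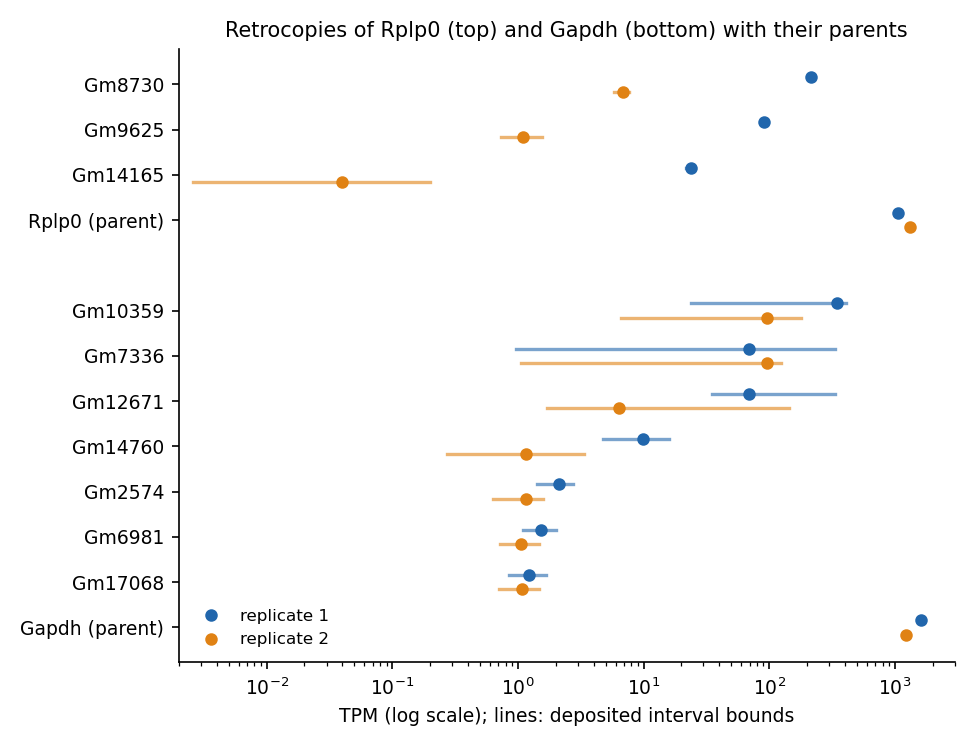
TPM of retrocopies of Rplp0 and Gapdh and of both parents, on a log axis; circles are replicate 1 (blue) and replicate 2 (orange), and lines span the deposited interval bounds. The bounds of the 3 Rplp0 copies do not overlap between the libraries, while those of the Gapdh copies Gm10359, Gm7336 and Gm12671 are wide.

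Summed over the 179 members, TPM reached 10662 in replicate 1 and 9428 in replicate 2, or 1.07% and 0.943% of the total (mean 1.00% ± 0.0872, SD, n = 2). The median member had 6.01 and 4.33 TPM. The 5 highest members held 49.5% and 51.6% of the members' TPM, and the 20 highest held 77.8% and 81.8%. Deposited lengths ranged from 192 to 3338 bases with a median of 591, and fewer than 10 counts stood behind the level of 7 members in replicate 1 and 10 in replicate 2.

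Of the 5 highest TPM values, 3 rest on very short effective lengths, the number of positions a fragment can start from, by which TPM divides the count. Gm12338, a copy of the cytochrome c oxidase subunit gene Cox7c, ranked first with 2785 and 1068 TPM on 129 and 40.2 counts. Its deposited effective length was 1.29 bases in replicate 1 and 1.07 bases in replicate 2, against 318 and 322 bases for Cox7c. Gm10774, a copy of Polr2l, which encodes a small subunit shared by RNA polymerases, ranked second with 636 and 1679.9 TPM on 105 and 238 counts and an effective length of 4.55 and 4.01 bases. Gm10443, a copy of the ribosomal protein gene Rps28, had 776 and 603 TPM on 209 and 143 counts and an effective length of 7.45 and 6.74 bases.

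These 3 members held 39.4% and 35.5% of the members' TPM but 0.440% and 0.509% of their counts. The median effective length of the members was 382 bases in both libraries, and 6 members lay under 50 bases. Without those 6, an alternative added after seeing the data, the members held 0.626% of TPM.

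By counts the order was different. Gm9843, a copy of Fau, whose product joins a ubiquitin-like domain to a ribosomal protein, had the most reads with 5979 and 11938 counts (561 and 1149 TPM). Rpl14-ps1 followed with 6173 and 7324 counts (341 and 415 TPM). Gm10359, a copy of the glycolytic enzyme gene Gapdh, had 9908 and 2675 counts (346 and 95.7 TPM). Gm12715, a copy of the cytoplasmic gamma-actin gene Actg1, had 5510 and 6502 counts (166 and 201 TPM). Rps13-ps1 had 2953 and 4665 counts (249 and 403 TPM). These 5 held 34.7% of the members' counts over both libraries.

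**Figure D2:**
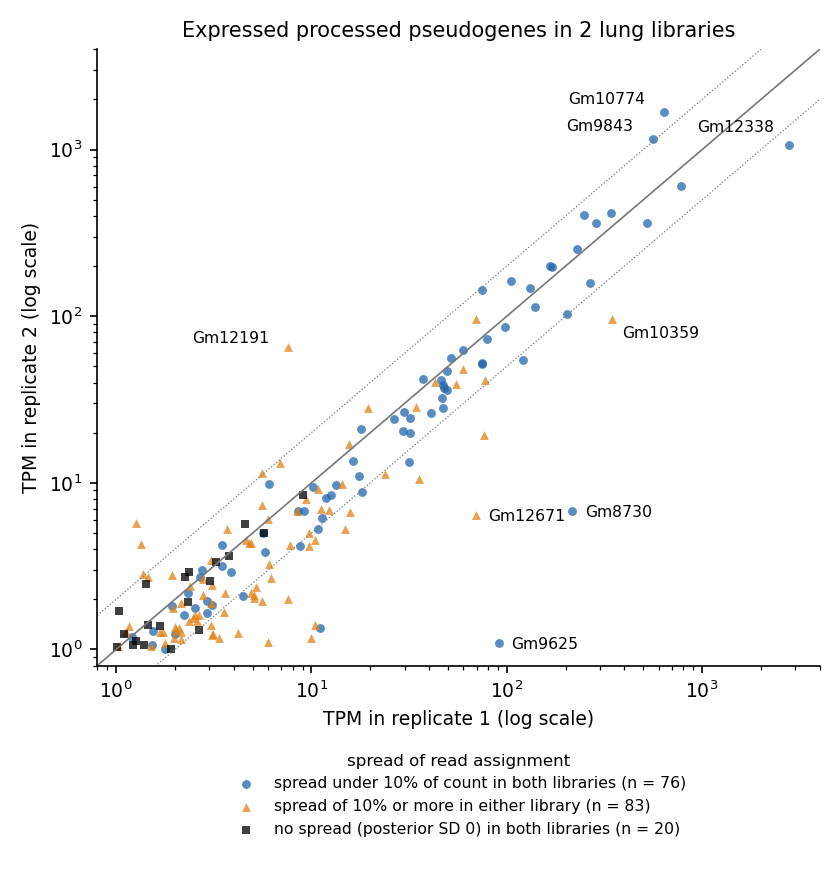
TPM of each of the 179 members in replicate 1 (x axis) and replicate 2 (y axis), both on log scales, with symbols by the spread of read assignment (posterior SD over posterior mean count). The solid line marks equal values and the dotted lines 2-fold. Most members lie between the dotted lines, and those far from them include Gm8730, Gm9625, Gm12671 and Gm12191.

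Copies of cytosolic ribosomal protein genes were the most numerous named family, with 55 of the 179 members (30.7%); they make up 1135 of the 5349 annotated processed pseudogenes (21.2%). They summed to 3872 and 3961 TPM, 36.3% and 42% of the members' TPM. Apart from Gm9843 and Gm10443, the ribosomal members among the 20 highest included Rpl14-ps1, Rps13-ps1, Rpl27-ps3 (286 and 361 TPM), Rpl15-ps3 (267 and 158 TPM), Gm7536 from Rpl27a (204 and 103 TPM), Rpl23a-ps3 (132 and 149 TPM) and Gm8730.

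Respiratory chain copies numbered 7 of 125 annotated (5.6%), against 3.35% of all processed pseudogenes. Gm12338 was followed by Ndufb4c (228 and 252 TPM), a copy of a gene for an accessory subunit of complex I. Glycolysis had 10 members of 218 annotated copies (4.59%), 7 of them from Gapdh. Pgam1-ps2, the highest with another parent, had 37.0 and 42.2 TPM, and Pgam1 encodes phosphoglycerate mutase. Cytoskeletal genes had 9 members of 58 annotated copies (15.5%), led by Gm12715; the next, Gm5915 from the myosin light chain gene Myl6, had 10.9 and 5.28 TPM. Of RNA binding and splicing genes there were 8 of 137 annotated copies (5.84%). They were led by Gm10146 from Lsm7 (59.9 and 48.2 TPM) and Gm8186 from Snrpg (47.2 and 38.5 TPM), both genes for small ribonucleoprotein components.

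Genes of the family of translation and nascent chain factors, as listed here with Tpt1, had 7 of 105 annotated copies (6.67%). Gm13456, from the elongation factor gene Eef1a1, had 74.7 and 51.5 TPM, and Tpt1-ps3 had 35.7 and 10.6 TPM. Chaperone and prolyl isomerase genes had 4 of 104 (3.85%). Gm10123 from Ppia, the cyclophilin A gene, had 139 and 114 TPM. Gm15459 from the heat shock cognate gene Hspa8 had 49.6 and 47.0 TPM. Chromatin genes had 4 of 182 (2.2%). They were led by Gm4617 from the prothymosin gene Ptma (105 and 162 TPM) and Gm12657 from the histone H3.3 gene H3f3a (7.74 and 4.24 TPM).

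Ubiquitin and proteasome genes had 3 of 94 annotated copies (3.19%). Gm13835 from the proteasome subunit gene Psma3 had 47.7 and 37.3 TPM. Gm9762 from the ubiquitin conjugating enzyme gene Ube2d2a had 4.89 and 2.18 TPM. Single members came from a 14-3-3 gene (Gm2423 from Ywhaq, 8.47 and 6.73 TPM), a GTPase gene (Rab11b-ps2, 23.8 and 11.3 TPM) and the ferritin family (Gm15590, 1.12 and 1.27 TPM). Those families had 9, 28 and 15 annotated copies. No member had a keratin, vimentin, annexin, S100 or mitochondrially encoded parent, families with 4, 7 and 6 annotated copies. With 3.35% of all processed pseudogenes as members, so few copies do not set these families apart. A further 64 members had parents outside these families (3.2% of 1999 annotated copies). Among them were Gm12481 from Serf2 (520 and 365 TPM), Gm7367 from Ubald2 (170 and 198 TPM) and Gm9791 from Carhsp1 (75.1 and 144 TPM).

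The expressed copies resembled their parents more closely than the rest did. Median identity to the parent was 99.5% over the 174 members with a parent, against 91.9% over 4046 processed pseudogenes below the threshold. An identity of 98% or more was found in 138 members (79.3%), against 15.4% of the rest, and 39 members (22.4%), against 60 of the rest (1.48%), matched the parent at every aligned base. The lowest identities were those of Gm13401 to Smpd2 (80.9%), AA414768 to E330021D16Rik (83.9%) and Gm14276 to Rps2 (85.9%).

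**Figure D3:**
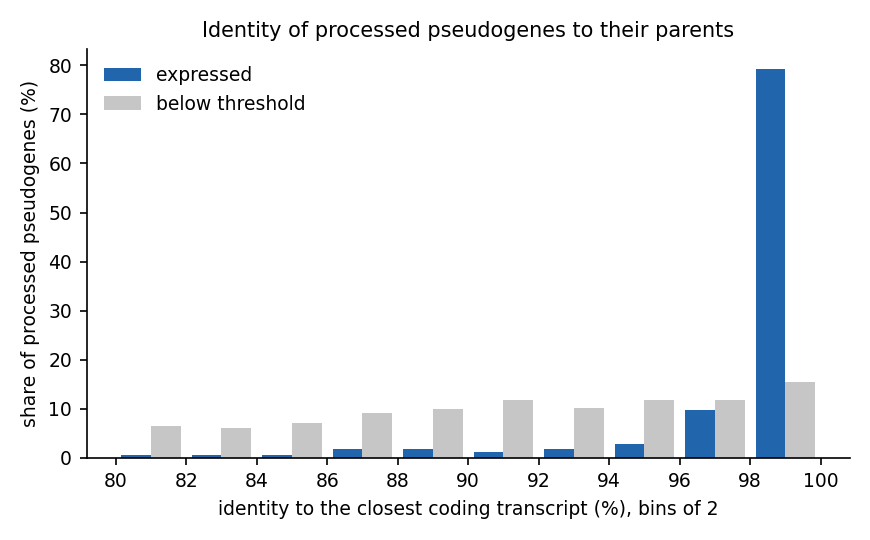
Identity to the closest coding transcript, in bins of 2 percentage points, as the share of the 174 expressed processed pseudogenes with a parent (blue) and of the 4046 below the threshold (grey); 10 of the latter with under 80% identity are not drawn. The bin from 98% holds 79.3% of the expressed copies.

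Few members could be read apart from other transcripts along their whole length: 15 (8.38%), against 55.3% of the rest, shared no stretch of 76 bases with another M21 transcript. The median member had 22% of its 76-base stretches to itself, against 100% in the rest. In 47 members (26.3%), against 183 of the rest (3.54%), no stretch of 76 bases was unique among GENCODE M21 transcripts. These 47 included 11 of the 20 highest members and held 71.7% and 70.1% of the members' TPM. The libraries hold pairs of reads, which span more than 76 bases, and the counting used GENCODE M4, so this share describes single reads against a later annotation. In 53 members the deposited length differed from the M21 model, and bases outside that model were not searched for own stretches. What part of the members' counts came from transcripts of the parents was not tested.

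Other features also differed from the rest. The longest reading frame from ATG to stop was at least as long as the parent's coding sequence in 81 of 174 members (46.6%), against 9.47% of the rest, and under 50% of it in 69, against 2856 of 4046 of the rest. A frame counted only with its stop inside the M21 model, and some models end before the parent's stop codon. Gm10146, identical to Lsm7 over its 309 bases, was given 21 bases against a parent coding sequence of 312. These shares thus mix model ends with broken frames. GC content had a median of 53.6%, against 47.6%. Chromosome X carried 9 members (5.03%), against 17.7% of the rest. Between genes lay 104 members (58.1%), against 68.3% of the rest; 28 (15.6%) lay in an intron of a coding gene on the same strand, against 9.09% of the rest, and 8 (4.47%) overlapped an exon of another gene on the same strand, against 1.04%. In 2 members a coding gene's exon covered the whole M21 model, so reads of that exon and of the pseudogene cannot be told apart. All 204 bases of Gm10774 lie in an exon of Usp50, a gene at 87.5 and 116 TPM. All 511 bases of Gm17084 (8.57 and 6.81 TPM), which had no parent, lie in an exon of the kinase gene Ripk1, at 9.20 and 13.2 TPM.

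Most members stood far below their parents. The median log2 ratio of pseudogene over parent, log2((TPM + 0.1)/(parent TPM + 0.1)), was -4.33 on the mean of both libraries, -4.09 in replicate 1 and -4.75 in replicate 2, and 101 members were under 10% of the parent's TPM in both. It ranged from -10.2 to 6.17.

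At the other end, 20 members exceeded their parent in both libraries. Gm10774 averaged 72.7 times the level of Polr2l and Gm12338 averaged 7.60 times that of Cox7c, both with the short effective lengths given above. Rpl27-ps3 averaged 13.8 times Rpl27 (22.5 and 24.5 TPM), Mrpl23-ps1, named after its values were seen, 9.35 times Mrpl23, Ndufb4c 5.20 times Ndufb4 and Rpl14-ps1 4.64 times Rpl14. In counts Ndufb4c was closer to Ndufb4, with 1490 and 1606 against 1321 and 1158. Its effective length was 181 bases in both libraries, against 749 and 756 for Ndufb4. Rps13-ps1 averaged 3.39 times Rps13 and Gm9843 averaged 2.15 times Fau. Of these, Rpl27-ps3, Ndufb4c and Gm9843 had no 76-base stretch of their own in the M21 models, while Rpl14-ps1 had 183 and Rps13-ps1 had 84. The deposited length was 475 bases against 411 in M21 for Rpl27-ps3, and 504 against 402 for Gm9843. The bases beyond the M21 models were not examined. AA414768 averaged 85.5 times its closest coding gene, E330021D16Rik, which had 0.09 and 0.03 TPM.

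**Figure D4:**
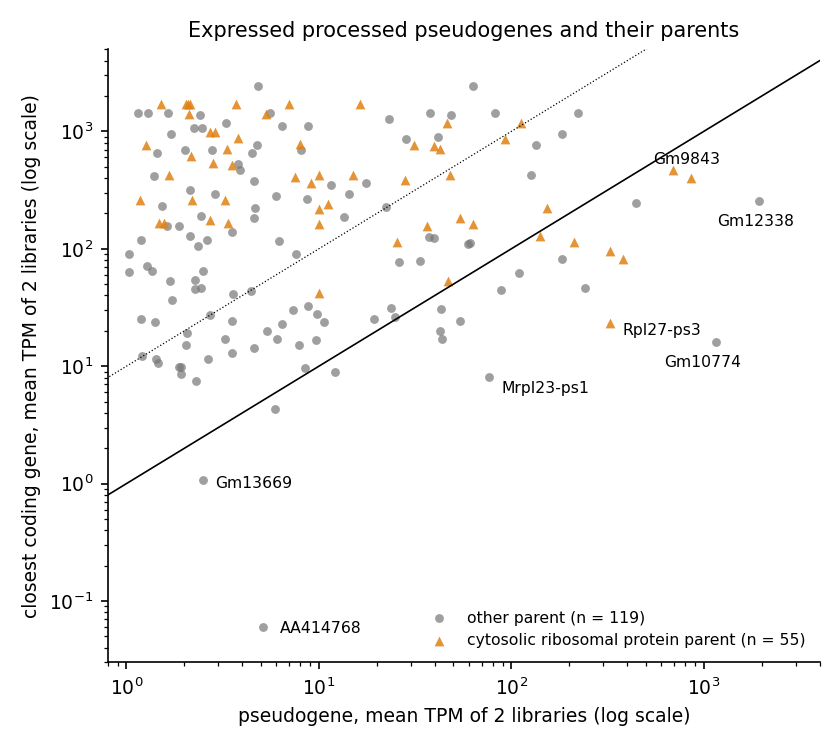
Mean TPM of 2 libraries for each of the 174 members with a parent (x axis) and for that parent (y axis), both on log scales; triangles have a cytosolic ribosomal protein parent. Points below the solid line are pseudogenes above their parent, and points above the dotted line are under 10% of it.

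Among copies of Gapdh, those closest to the parent had the widest assignment spread. This did not hold for all members. Of the 47 without a 76-base stretch of their own, 10 had a posterior SD under 5% of the posterior mean count in both libraries. Rpl27-ps3, identical to Rpl27 over the aligned bases, had a posterior SD of 19.6 and 21.4 on posterior means of 2745 and 3371. Its deposited length was 475 bases against 411 in M21, so own sequence outside the M21 model was not examined. Gapdh has 175 annotated processed pseudogenes, of which 61 had any counts and 7 were members. A stretch of 100 coding bases of Gapdh (chr6:125163027-125163224, minus strand, with a junction after base 86) is shown with Gm10359 (chr5:105863368-105863467, minus strand), Gm6981 (chr9:52002941-52003040, minus strand) and Gm17068 (chr19:16278009-16278108, plus strand). Capitals again mark differences from the parent, at 0, 12 and 5 bases.

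Gapdh: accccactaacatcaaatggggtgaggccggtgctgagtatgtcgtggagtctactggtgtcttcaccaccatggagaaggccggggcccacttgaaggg
Gm10359: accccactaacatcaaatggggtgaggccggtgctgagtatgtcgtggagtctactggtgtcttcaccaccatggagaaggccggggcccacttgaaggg
Gm6981: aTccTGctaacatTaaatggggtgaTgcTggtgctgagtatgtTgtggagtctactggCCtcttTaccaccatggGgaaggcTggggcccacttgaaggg
Gm17068: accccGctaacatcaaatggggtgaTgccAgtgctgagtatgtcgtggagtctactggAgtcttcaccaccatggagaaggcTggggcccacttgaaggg

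Gm10359 and Gm12671 are identical to each other over their full length and to Gapdh over the aligned bases. Gm10359 had 9908 and 2675 counts with a posterior SD of 3766 and 1651. Gm12671 had 1991 and 179 counts (69.5 and 6.40 TPM). Its posterior mean count was 4776 and 1980 with a posterior SD of 2687 and 1218. That SD exceeded the expected count in both libraries but not the posterior mean. Gm7336, which differs from Gapdh by 1 substitution and 2 inserted bases over its M21 model, had 1991 and 2678 counts (69.5 and 95.8 TPM). Its posterior mean count ran the other way, 2771 and 1360, with a posterior SD of 3131 and 1015. In replicate 1 Gm7336 and Gm12671 were given the same count, 1990.92.

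The other Gapdh copies were low, and their spread fell with distance from the parent. Gm14760, on chromosome X with 1 substitution, had 283 and 32.6 counts with a posterior SD of 84.9 and 23.7. Gm2574 had 79.1 and 41.6 counts with an SD of 9.53 and 6.43. Gm6981, with 52 substitutions, had 44.0 and 29.9 counts with an SD of 0.80 and 0.53. Gm17068, also with 52 substitutions, had 34 and 29 counts with an SD of 0. Together the 7 copies had 14330.2 counts in replicate 1 and 5665 in replicate 2, while Gapdh itself had 51772 and 32405, and the ratio of copies and parent summed was 1.45 (1.43 to 1.47).

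In 20 members the posterior SD was 0 in both libraries, and all 20 had whole-number counts (tolerance 0.005). Their median identity to the parent was 89.4%, against 99.5% in the other 159, and their median share of own 76-base stretches was 100%. An intron of a coding gene on the same strand held 11 of these 20, against 17 of the other 159. They were low, from 1.02 to 8.74 TPM with a median of 1.96, and held 0.492% and 0.542% of the members' TPM. The highest was Gm11517, with 58 and 53 counts (9.02 and 8.46 TPM), followed by Gm16574, which overlaps the noncoding gene Airn (111 and 94 counts, 5.74 and 4.98 TPM).

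Members of this group beyond the naming rule are given as examples chosen after their values were seen. Gm11400, a copy of the elongation factor gene Eef2 in an intron of Sfi1, had 118 counts in each library. Gm17971, a copy of Rps2 in an intron of Coq10b, had 82 and 77 counts (3.80 and 3.66 TPM), while the host was at 7.75 and 10.4 TPM. Gm14276, another copy of Rps2, had 43 and 35 counts (2.33 and 1.94 TPM). What part of these counts came from transcripts of the host genes was not tested.

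A near-identical copy of the same parent had a wider spread: Gm6311, at 98.9% identity to Rps2, a small ribosomal subunit gene, had 159 and 66.8 counts with a posterior SD of 30.5 and 26.1.

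Between the libraries, 18 of the 113 members averaging 50 or more counts (15.9%) were 2-fold or more apart, against 6.66% of the 14708 genes with as many counts. Toward replicate 1 there were 13 members (11.5%, against 4.45% of all genes), and toward replicate 2 there were 5 (4.42%, against 2.21% of all genes). Of the members' parents, 3 of 139 (2.16%) were 2-fold apart, 1 toward replicate 1 (0.719%) and 2 toward replicate 2 (1.44%), and none of those was the parent of any of the 18. The median log2 ratio of replicate 1 over replicate 2 was 0.18 over 173 members averaging 10 or more counts, against 0.02 over 17334 genes and -0.06 over 140 parents. With 2 libraries of 1 group, these values describe this pair and have no test.

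Retrocopies of Gapdh and Rplp0 made up 5 of the 13 members higher in replicate 1. Behind Gm9625 and Gm8730, Gm12671 was 9.28-fold higher (7.96 to 10.9), Gm14760 7.15-fold (4.98 to 10.6) and Gm10359 3.09-fold (2.96 to 3.23), each with the large posterior SD given above, which these intervals leave out. These folds use expected counts, while the posterior mean counts were 4776 and 1980 for Gm12671 and 6239 and 2196 for Gm10359. The deposited bounds overlapped between the libraries for Gm12671 (34.8 to 335 and 1.71 to 143 TPM) and for Gm10359 (24.0 to 405 and 6.57 to 181 TPM). The split of reads between these 2 identical copies is therefore uncertain. Rps6-ps4 had 1496 and 371 counts, a 3.36-fold difference (3.001 to 3.78), and has no 76-base stretch of its own. The remaining 7 lay between 2.04-fold and 3.20-fold and, past the naming rule, were Gm9800 from Ptma, Tpt1-ps3, Gm12338, Gm10052 from Hnrnpa1, Rps23-ps1, Pgk1-rs7 and Gm7964 from Hnrnpk.

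Toward replicate 2 the largest difference was that of Gm12191, a copy of the ribosomal protein gene Rpl30 in an intron of Cnot6. It had 37.9 counts in replicate 1 and 320 in replicate 2 (7.55 and 65.5 TPM), and replicate 2 was 10.1-fold higher (7.20 to 14.5). It has no 76-base stretch of its own, and its posterior SD was 11.5 and 22.9 counts, a spread that the interval leaves out. The deposited bounds were 0.07 to 9.12 TPM in replicate 1 and 46.2 to 69.0 TPM in replicate 2. Its parent Rpl30 went the other way, 1.96-fold higher in replicate 1, and copy and parent summed were 1.54-fold higher there (1.44 to 1.64). A stretch of 60 coding bases of Rpl30 (chr15:34442677-34442736, minus strand) and of Gm12191 (chr11:49678933-49678992, minus strand) holds the 1 base, in capitals, at which the whole aligned copy differs from its parent.

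Rpl30: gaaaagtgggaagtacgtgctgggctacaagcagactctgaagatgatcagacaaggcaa
Gm12191: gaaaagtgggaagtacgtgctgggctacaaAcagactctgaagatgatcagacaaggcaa

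The others higher in replicate 2 were Gm10774 (2.72-fold, 2.15 to 3.45), Gm9843 (2.39-fold, 2.32 to 2.47), Rpl39-ps (2.26-fold, 1.49 to 3.49) and Gm9791 (2.24-fold, 2.10 to 2.40). Of these, Gm9791 has 224 stretches of its own in its M21 model, and Gm9843 and Gm10774 have none in theirs. Fau, the parent of Gm9843, was 1.13-fold higher in replicate 2. None of the 7 members with a posterior SD of 0 and an average of 50 or more counts was 2-fold apart, against 18 of the other 106; their small number limits this comparison.

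**Figure D5:**
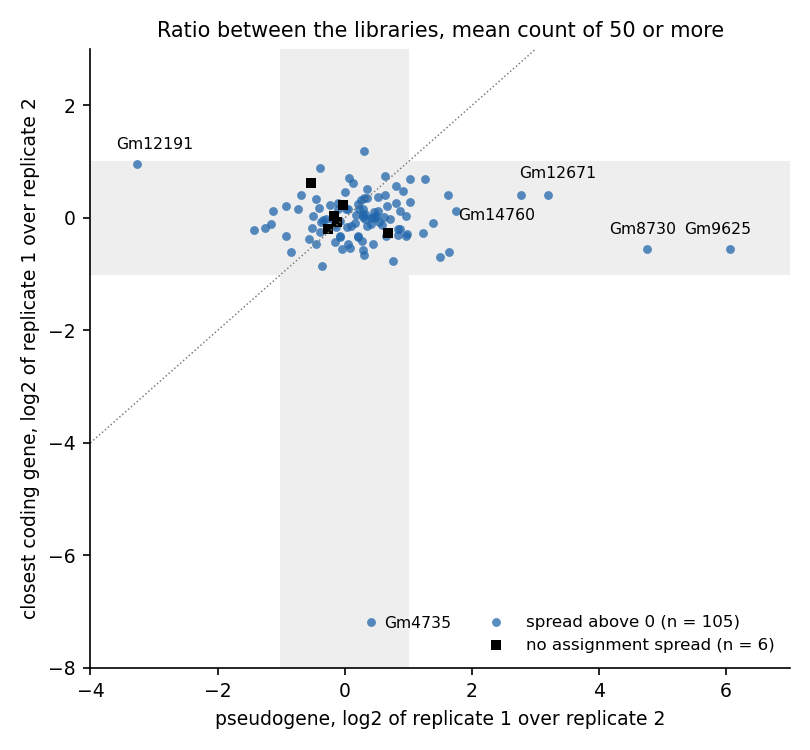
Log2 ratio of replicate 1 over replicate 2 for 111 members that average 50 or more counts and have a parent (x axis) and for the parent (y axis); the grey bands mark ratios within 2-fold. All 18 members outside the vertical band have a parent inside the horizontal one, while Gm4735 and Gm7334 lie inside the vertical band with parent ratios of -7.18 and 1.20.

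By family, 36 ribosomal members averaged 50 or more counts, of which 4 were 2-fold higher in replicate 1 and 3 in replicate 2. Of 8 glycolysis members 4 were higher in replicate 1, of 5 RNA binding members 2, of 6 translation members 1, of 5 respiratory chain members 1 and of 2 chromatin members 1. None of the 6 cytoskeletal members was 2-fold apart. Over all genes, 4.45% were higher in replicate 1 and 2.21% in replicate 2, and families of so few members cannot be set apart from these shares. The reverse case, a parent 2-fold apart with a copy within 2-fold, included 2 members named after their values were seen. Gm4735 had 100.1 and 62.1 counts while Eno1b, its closest coding gene, had 15.4 and 2072. Whether Gm4735 was copied from Eno1b was not tested. Gm7334 had 592 and 398 counts while Btg3 had 412 and 149.

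With the threshold at 0.5 TPM there were 252 members, and at 2 TPM there were 118. Just inside were Gm6517 (1.78 and 1.00 TPM on 20 and 11 counts), Gm13401 (1.01 and 1.04 TPM on 3 counts each) and Gm7357 (1.91 and 1.01 TPM on 192 and 99 counts). Just outside were Gm29718 (0.96 and 1.39 TPM), Gm37009 (1.64 and 0.94 TPM) and Gm5560 (1.16 and 0.94 TPM). A further 74 processed pseudogenes reached it in replicate 1 alone and 25 in replicate 2 alone, 1086 had any count, and 4263 had none in either library. The longest members were Gm7353 from Zc3h3 (3338 bases, 6.05 and 9.80 TPM), Gm7357 from Mov10 (2991 bases) and Gm5884 from Tom1 (2259 bases, 9.68 and 5.03 TPM).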

How the data were processed

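The deposited gene tables of both libraries give, per the file headers, estimated (expected) counts, TPM, FPKM, posterior means and SDs of the count and interval bounds, used here as a deposited signal on the TPM scale. The deposited file lists name mm10 and GENCODE M4; the sources used here do not name the aligner or quantifier. TPM of a short feature depends on its effective length. Gene types, symbols, coordinates and transcripts came from GENCODE M21 (mm10); 42462 of 43346 gene rows matched, and 53 members had another length there. Transcript tables, junctions and contigs were not used.

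Deposited TPM of at least 1 in both libraries chose the members. Parents were found with BLAST 2.17.0 (blastn, same strand), leaving out coding genes at the same locus, a step added to the planned rule. Deposited estimated counts were rounded and scaled by TMM (edgeR 4.0.16, R 4.3.3), with a prior count of 2 for log2 ratios; size factors of DESeq2 1.42.0 were an alternative. Analyses ran in Python 3.11.15. Fold and parent search were tested on simulated data. Deposited FPKM values served as an alternative only. With 1 group there was no comparison of conditions.

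The members and lists were chosen with earlier results of these data known. Named were the 20 highest members, the 2 highest per family, the 5 largest ratios each way, the 3 on either side of the threshold, the 3 longest, the 3 lowest in identity, and their parents, except 1 of the 20 highest, which is not reported here; other names were chosen after their values were seen.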

Additional observations from a re-analysis of the deposited data

How the results depend on the processing

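The number of members was 118 at 2 TPM, 82 at 5 TPM and 117 where the deposited lower bound had to reach 1 TPM, and 204 to 253 when either library alone set the threshold. Members held 0.198% of counts in place of 1.00% of TPM, and 0.626% of TPM without effective lengths under 50 bases, an alternative added after seeing the data; either library alone gave 0.943% to 1.07% of TPM. Ribosomal parents numbered 30 from symbols alone and 30 at 5 TPM. The median log2 ratio to the parent was -5.32 on expected counts and -4.89 on deposited lower bounds, and -4.75 to -4.09 in either library. With no count minimum 29 members (16.2%) were 2-fold apart, against 7.51% of all 43346 gene rows, many of which had few or no counts. Among those averaging 10 or more counts, 15.03% of 173 members were 2-fold apart, against 10.06% of 17334 genes. With log2(TPM + 0.1) and 50 or more counts, 23 members were 2-fold higher in replicate 1 and 3 in replicate 2. The main setting had 13 and 5. On that scale 23.01% of members were 2-fold apart, against 8.25% of all genes. The median log2 ratio between the libraries was 0.30 with library size alone and 0.38 on log2(TPM + 0.1), with all genes at 0.15 and 0.22. Exon overlaps fell to 2 when at least 50% of the pseudogene had to be covered, and to 2 with coding genes only. The causes of these changes were not tested beyond what each setting does. Of 51 alternative values, 37 stayed close, 14 moved and 0 changed sign, which counts and shares cannot do. A count was called close within 1.5 times and the median ratio between the libraries within 0.1. Shares of TPM and ratios to the parent were called close within the SD of the 2 libraries. For the share of TPM, either library alone lies within that SD by construction. The tally therefore describes these rules and does not measure robustness. No paired analysis was possible because there is only 1 group.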

Other observations

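GENCODE M21 has a separate type for processed pseudogenes with evidence of transcription, outside the rule used here. It held 183 gene rows, of which 22 (12%) had at least 1 TPM in both libraries, with a median of 8.53 TPM. The posterior SD was 0 in both libraries in 3 of them. Of the 19 averaging 50 or more counts, 4 were 2-fold apart, against 6.66% of all genes with as many counts. The highest was Gm10275 with 348 and 432 TPM, and Rps4l had 118 and 121 TPM with a posterior SD of 0.18 and 0. Rpl37rt had 269 counts in replicate 1 and 46.3 in replicate 2.

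Processed pseudogenes above the threshold in 1 library included some with many reads there. Gm6166, a copy of the fatty acid binding protein gene Fabp5, had 4.18 and 423 counts (0.25 and 26.1 TPM). Gm13316, a copy of Taf5l antisense to Cacnb2, had 0 and 111 counts. Gm10241, a copy of Sumo2, had 38.0 and 0 counts. All were picked after their values were seen.

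RefSeq (GRCm38.p6) listed 157 of the 179 members by symbol and called 132 pseudogenes, 20 transcribed pseudogenes and 5 protein coding. The 5 were Ndufb4c, Gm12657, AA414768, Rpl34-ps1 and Gm12250.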
